A study of Homo sapiens with 2 samples.

Results

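The regions described here are the DNase I hotspots of 2 human osteosarcoma cell lines, Saos-2 and U2OS, that lie in gene deserts. A member was a hotspot on chromosomes 1 to 22 more than 200 kb from the span of every protein-coding gene in RefSeq (hg38), and hotspots in chains were left out. A chain was a run of at least 8 hotspots of a line, each no more than 2 kb from the next. The rule found 4272 of 51556 hotspots in Saos-2 and 6358 of 63388 in U2OS, 10630 of 114944 hotspots in all. The rule used position only, so neither the significance of a hotspot nor its presence in the other line chose the members.

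Both lines are established lines derived from bone tumours, and the labels name no treatment or genetic change for either. Each was profiled with 1 DNase-seq library, an assay in which DNase I cuts DNA that is not wrapped in nucleosomes and stretches rich in cuts are called as hotspots. The lists hold hotspots at a false discovery rate of 0.05. With 1 library per line there is no replicate error and no test, all differences are between these 2 libraries, and the intervals given are 95% intervals for counting error only. The read depth of the libraries is unknown from the lists, and copy number was not analysed here. As a check of the labelled cell type, 4 of 10 osteoblast lineage genes had a hotspot within 1 kb of an end in each line. RUNX2, SPARC and BGLAP had one in both lines, ALPL had one in Saos-2, COL1A1 had one in U2OS, and SP7, COL1A2, IBSP, SPP1 and POSTN had none. Among 4 epithelial markers only KRT8 had a hotspot, in U2OS, and among 4 blood markers only SPI1 did, in both lines. The share over all genes is not given here, so these counts cannot decide the cell type.

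Gene deserts are long stretches of the genome that hold no protein-coding gene. Those beside genes for developmental transcription factors are known to carry distant enhancers, which loop to a promoter far away and drive it in a given tissue. Open chromatin in a desert is therefore often a candidate enhancer, an insulator or the promoter of a long non-coding RNA (lncRNA), and the flanking genes are the natural names for the stretch. Here a desert was a maximal stretch more than 200 kb from every protein-coding gene. There were 804 deserts with a median length of 0.38 Mb, and they held 23.8% of the length of chromosomes 1 to 22.

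Hotspot sequences could not be read without a genome, so the sequences shown are RefSeq promoter windows (GRCh38.p14) of lncRNA genes in deserts, each from 250 bases before to 50 bases after a start. They are shown because a hotspot at a start gives a desert site a known transcript. Of 2352 lncRNA genes wholly in deserts, 1431 matched a window. There were 1740 desert windows of 1518 genes, so not all of them belong to lncRNA genes wholly in deserts. A hotspot of either line touched 111 of the 1740 (6.38%). Of these, 67 windows had a U2OS hotspot only, 10 had a Saos-2 hotspot only and 34 had both. The windows printed are among the 3 of each class with the most significant hotspots that covered at least 200 of the 300 bases, a choice made after values were seen. Capitals mark matches on either strand to AP-1 (TGANTCA), RUNX (TGTGGTT), TEAD (GGAATG), part of the CTCF motif (GGNGGCAG) or the p53 decamer, and each sequence is on the strand of its gene.
PURPL: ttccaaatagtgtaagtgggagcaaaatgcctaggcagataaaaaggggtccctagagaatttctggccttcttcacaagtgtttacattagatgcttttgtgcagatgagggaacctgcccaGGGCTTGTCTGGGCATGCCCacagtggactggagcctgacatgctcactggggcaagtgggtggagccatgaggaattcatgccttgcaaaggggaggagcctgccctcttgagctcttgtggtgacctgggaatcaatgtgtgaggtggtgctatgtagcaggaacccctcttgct
LINC02226: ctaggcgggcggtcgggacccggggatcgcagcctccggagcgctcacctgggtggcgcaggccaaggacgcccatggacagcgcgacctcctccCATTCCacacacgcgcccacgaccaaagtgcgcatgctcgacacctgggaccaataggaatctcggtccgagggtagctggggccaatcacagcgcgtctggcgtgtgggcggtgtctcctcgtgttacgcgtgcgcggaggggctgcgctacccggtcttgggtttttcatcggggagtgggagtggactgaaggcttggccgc
LOC124900845: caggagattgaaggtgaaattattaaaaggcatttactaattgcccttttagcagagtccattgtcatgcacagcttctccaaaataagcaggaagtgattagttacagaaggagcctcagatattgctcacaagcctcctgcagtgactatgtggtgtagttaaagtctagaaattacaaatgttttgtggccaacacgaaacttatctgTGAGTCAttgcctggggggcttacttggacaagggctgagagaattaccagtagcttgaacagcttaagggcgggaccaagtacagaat
LOC124905055: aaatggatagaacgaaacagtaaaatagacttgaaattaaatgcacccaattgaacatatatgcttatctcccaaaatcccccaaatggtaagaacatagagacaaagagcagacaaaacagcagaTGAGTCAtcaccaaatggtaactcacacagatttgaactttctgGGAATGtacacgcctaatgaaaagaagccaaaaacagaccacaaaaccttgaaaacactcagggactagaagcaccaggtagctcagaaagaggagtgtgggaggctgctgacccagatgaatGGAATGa
LOC101927293: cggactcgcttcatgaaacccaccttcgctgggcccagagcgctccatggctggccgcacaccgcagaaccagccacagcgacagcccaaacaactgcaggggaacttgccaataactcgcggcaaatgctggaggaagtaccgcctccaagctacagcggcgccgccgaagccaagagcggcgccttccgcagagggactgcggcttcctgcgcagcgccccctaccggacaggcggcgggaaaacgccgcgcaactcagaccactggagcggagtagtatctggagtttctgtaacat

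PURPL, a lncRNA known to be induced by p53, has its window at chr5:27472042-27472341 on the plus strand, in the desert between CDH9 and LOC124901178. A U2OS hotspot with a −log10 significance of 29.7 covered all 300 bases, and no Saos-2 hotspot touched the window. The capitals in its window are 2 abutting p53 decamers, an arrangement known as a full p53 response element. Among RefSeq windows of 27305 genes, this arrangement was found in 6 windows on chromosomes 1 to 22, and 2 of these lay in deserts. PTCHD4, also a known p53 target but not in a desert, held the only other of the 6 windows with a hotspot, again in U2OS only (7.67). The windows of LNCTAM34A, EIF2AK3-AS1, LOC124901737 and LOC105376065 had a hotspot of neither line. The share of all RefSeq windows with a hotspot is not given here. These 2 of 6 windows therefore have no background to be set against. Saos-2 is known to lack p53 and U2OS to carry the wild-type gene. The p53 motif was searched after hotspots at PURPL had been seen, and its part in the difference was not tested.

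LINC02226 (chr5:8457515-8457814, minus strand, between MTRR and SEMA5A) had the most significant hotspot of the windows open in U2OS only, at 51.9. Its window is rich in CG dinucleotides, with 31, against a median of 2 over desert windows and 14 over all RefSeq windows. LOC124900845 (chr4:32140729-32141028, minus strand) lies between PCDH7 and ARAP2, and its window, with 1 AP-1 match, was covered by a Saos-2 hotspot at 16.2 and by none of U2OS. LOC124905055 (chr21:15422734-15423033, plus strand, between NRIP1 and USP25) had hotspots at 21.7 in Saos-2 and 20.3 in U2OS. Its window holds 1 AP-1 and 2 TEAD matches. LOC101927293 (chr6:57961298-57961597, plus strand, between PRIM2 and KHDRBS2) had hotspots at 14.9 and 14.5, and its CG-rich window holds none of the motifs.

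AP-1 matches, the binding letters of the FOS and JUN factors, stood in 12 of 34 desert windows with hotspots of both lines (35.3%), in 17.9% of those with a U2OS hotspot only and in 13.0% of those with no hotspot. The share over all desert windows was 13.6%, and over all RefSeq windows it was 7.71%. TEAD matches stood in 32.4% of the windows with both lines, in 19.4% of those with U2OS only, in 16.2% of those with none and in 14.0% of all RefSeq windows. RUNX matches were in 16.4% of the windows with U2OS only, 5.88% of those with both, 5.65% of those with none and 4.27% of all RefSeq windows. The CTCF letters were in 6.95% of desert windows and 16.7% of all windows, beside a median GC content of 41.0% in desert windows and 58.7% in all. Only 10 windows were open in Saos-2 only, and 2 of them held each of AP-1, RUNX and TEAD. Some of these windows belong to the same gene, so they are not independent, and a match is a description of letters.

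Desert hotspots were sparse in both lines. Saos-2 had 6.24 hotspots per Mb of desert and 20.8 per Mb in the rest of chromosomes 1 to 22, a density 3.33-fold lower in deserts. U2OS had 9.28 per Mb of desert and 25.4 elsewhere, 2.73-fold lower. Assembly gaps count as length here. Deserts held 8.58% of the autosomal hotspots of Saos-2 (interval 8.34 to 8.83) and 10.3% of those of U2OS (10.0 to 10.5). Individual members were not much weaker than other hotspots. Their median −log10 significance was 3.86 against 4.07 elsewhere in Saos-2 and 4.39 against 4.66 in U2OS, and their median width was 226 against 239 bp and 240 against 250 bp. In the most significant 10% of its list stood 9.78% of the Saos-2 members and 9.30% of the U2OS members. Fewer had a close neighbour of their own class: 42.0% of Saos-2 and 42.4% of U2OS members had another member of the line within 10 kb. Of the other hotspots, 54.3% and 55.7% had another such hotspot within 10 kb. Hotspots across the 200 kb limit or in chains were not counted as neighbours, which lowers the shares at desert edges.

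The lines shared fewer hotspots in deserts than elsewhere. Of the Saos-2 members, 2216 had no U2OS hotspot over them (51.9%, interval 50.4 to 53.4), and the background was 40.3% of the other autosomal Saos-2 hotspots. Of the U2OS members, 4301 had no Saos-2 hotspot over them (67.6%, 66.5 to 68.8), and the background was 51.5%. The difference in the share overlapped, deserts minus the rest, was -11.5 percentage points in Saos-2 (-13.1 to -9.97) and -16.1 in U2OS (-17.3 to -14.9). The gap stood within each of 5 equal classes of significance and each of 4 width classes. In the most significant class, 71.5% of Saos-2 members were overlapped against 84.9% of the other hotspots, and 61.3% of U2OS members against 79.8%. In the least significant class the shares were 32.1% against 39.0% in Saos-2 and 17.9% against 25.0% in U2OS.

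Beyond 10 kb from genes, the share overlapped was lower in each farther class. Inside genes 60.8% of Saos-2 and 53.2% of U2OS hotspots were overlapped, up to 10 kb away 61.7% and 45.0%, and at 10 to 50 kb 58.2% and 41.9%. At 50 to 200 kb, outside the rule, the shares were 54.0% and 39.8%. Among the members they were 50.4% and 34.1% at 200 to 500 kb, 45.9% and 30.8% at 500 to 1000 kb, and 36.5% and 23.1% beyond 1000 kb. The last class held 340 Saos-2 and 519 U2OS hotspots. Just inside the threshold, at 200 to 220 kb, 50% of 372 Saos-2 and 36.1% of 527 U2OS hotspots were overlapped. Just outside it, at 180 to 200 kb, the shares were 54.5% of 433 and 42.4% of 578. The nearest members lay 200039 bp (Saos-2) and 200025 bp (U2OS) from a gene, and the farthest hotspots left out lay at 199926 and 199794 bp.

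**Figure D1:**
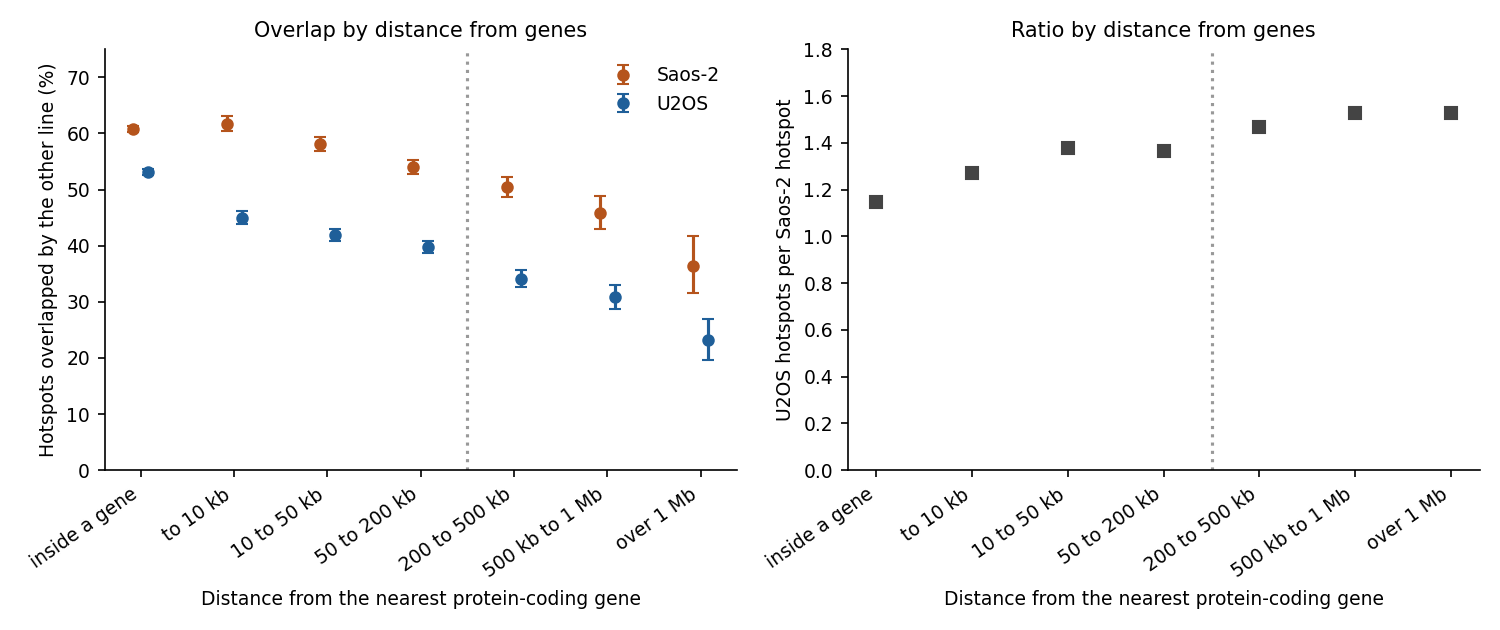
Left, the share of hotspots overlapped by the other line (%, points with 95% Wilson intervals for counting error) by distance from the nearest protein-coding gene. Right, U2OS hotspots per Saos-2 hotspot in the same classes. The dotted line marks the 200 kb limit, to the right of which are the desert hotspots. The shares drop to 36.5% and 23.1% beyond 1 Mb, while the ratio goes from 1.15 inside genes to 1.53.

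U2OS had 1.49 hotspots per Saos-2 hotspot in deserts (1.43 to 1.55) and 1.22 elsewhere on the autosomes. Elsewhere is mostly inside genes, where 28069 of 45507 Saos-2 hotspots lay and the ratio was 1.15. Outside genes but not in deserts it was higher, at 1.27 up to 10 kb, 1.38 at 10 to 50 kb and 1.37 at 50 to 200 kb. The lean towards U2OS is therefore not particular to deserts. Ratios are given from here as centred log2 ratios of U2OS to Saos-2 hotspots, which are 0 at the ratio elsewhere and positive where U2OS has more. In deserts as a whole this value was 0.29 (0.23 to 0.34). It turned to -0.36 (-0.64 to -0.07) for the 210 Saos-2 and 204 U2OS hotspots more than 200 kb from every annotated gene of any type. The sign differed between classes of desert. A set of 23 deserts on all 22 autosomes holds a stretch of at least 1.5 Mb with no annotated gene of any kind, and in hg38 such stretches include the centromeres and the short arms of the acrocentric chromosomes. These gene-free deserts had 310 Saos-2 and 226 U2OS hotspots, a centred log2 ratio of -0.74 (-1.0 to -0.49). The remaining deserts had 3962 and 6132, a ratio of 0.34 (0.28 to 0.40). In gene-free deserts 25.5% of Saos-2 and 41.2% of U2OS hotspots were overlapped, and in the rest 49.9% and 32.0%. Chains were found mainly there: of 244 Saos-2 desert hotspots left out in 8 chains, 217 lay in gene-free deserts, as did the 10 U2OS hotspots of its only autosomal chain. The gene-free class and its limit were chosen after the values were seen, and the reason for the difference was not tested.

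Hotspots of both lines were found in 573 deserts, of Saos-2 only in 29, of U2OS only in 121, and of neither in 81. At least 10 hotspots of both lines together were found in 353 deserts, with a median of 22. Of these, 101 deserts (28.6%, 24.1 to 33.5) were at least 2-fold towards U2OS after centring and 37 (10.5%, 7.70 to 14.1) at least 2-fold towards Saos-2. The same rule in 1 Mb bins outside deserts gave 11.8% and 5.02%, but those bins held a median of 41 hotspots. Among bins of 10 to 40 hotspots the background was 20.8% towards U2OS and 6.43% towards Saos-2, and among deserts of 10 to 40 hotspots the shares were 31.5% and 10.1%. The counting interval lay off 0 in 57 of the deserts towards U2OS and in 17 of those towards Saos-2. With ratios centred on all desert hotspots instead, 84 deserts were at least 2-fold towards U2OS and 51 towards Saos-2. Of the 353 deserts, 8 had no Saos-2 hotspot, with 120 U2OS hotspots in all, and 0 had no U2OS hotspot. The bins outside deserts leaned the same way, with 11 of 2250 lacking Saos-2 hotspots and 0 lacking U2OS hotspots.

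**Figure D2:**
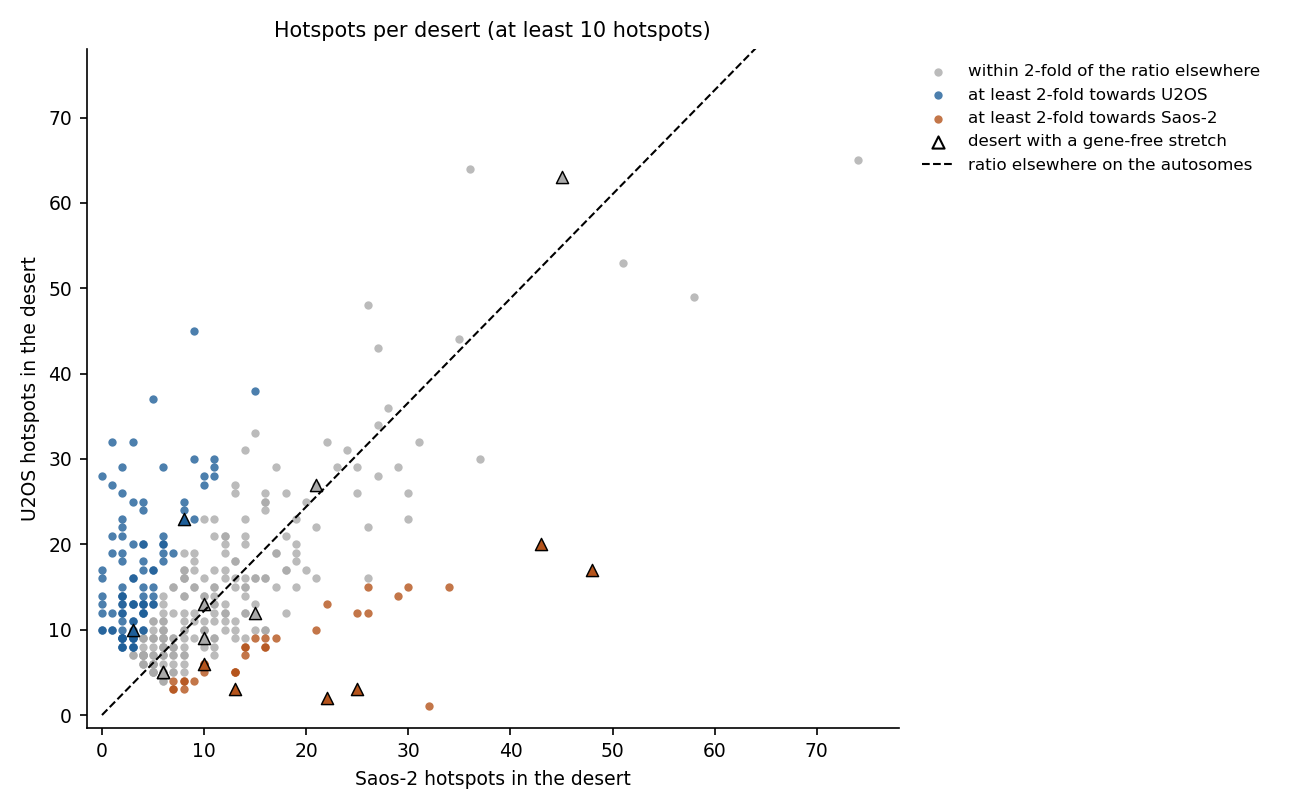
Saos-2 hotspots (x axis) against U2OS hotspots (y axis) in each of the 353 deserts with at least 10 hotspots, 1 point per desert, coloured by whether the ratio is at least 2-fold off the ratio elsewhere (dashed line). Triangles are deserts with a gene-free stretch. The 8 points at 0 on the x axis have 10 to 28 U2OS hotspots, and no point lies at 0 on the y axis.

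The desert with the most hotspots lay between MYC, a transcription factor that drives growth, and GSDMC, a gasdermin (chr8:127942952-129505434). It held 74 Saos-2 and 65 U2OS hotspots, of which 38 and 37 were overlapped. The centred ratio was -0.47 (-0.98 to 0.03), so counting error covers 0. One of the 5 best shared pairs of hotspots stood there, 1157 kb from MYC and 804 kb from GSDMC, at 45.1 in Saos-2 and 56.4 in U2OS (Saos-2 hotspot chr8:128900404-128901154). The desert between CRYBA4, a lens crystallin, and MN1, a transcriptional co-regulator (chr22:26830670-27548276), was shorter and denser in U2OS, with 36 Saos-2 and 64 U2OS hotspots, or 50.2 and 89.2 per Mb. Deserts between SPDYE21 and AUTS2 on chromosome 7 (58 and 49) and between CITED2, a co-regulator of transcription, and LOC124901415 on chromosome 6 (51 and 53) were as rich. None of these 4 deserts was 2-fold off. Among the 10 richest, ZEB2, a repressor known from the epithelial-mesenchymal transition, and ACVR2A on chromosome 2 flanked 26 Saos-2 and 48 U2OS hotspots (0.60, -0.12 to 1.34). IGFBP3, a carrier of insulin-like growth factors, and TNS3 on chromosome 7 flanked 27 and 43 (0.38, -0.34 to 1.14). The gene-free desert between ZNF254 and UQCRFS1 on chromosome 19 held 45 and 63.

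Deserts beside developmental regulators were denser in hotspots than deserts at large. Of 85 listed regulators, 63 bordered a desert, at 75 deserts with 11 Saos-2 and 16.6 U2OS hotspots per Mb, against 6.24 and 9.28 over all deserts. Their median centred ratio was 0.49 over 38 deserts with at least 10 hotspots, and over all such deserts it was 0.30. Among the 38, 14 were at least 2-fold towards U2OS and 3 towards Saos-2, beside 28.6% and 10.5% of all deserts with at least 10 hotspots. None of the listed deserts holds a gene-free stretch, so the density over all deserts is lower in part by construction; outside gene-free deserts it was 8.00 and 12.4 per Mb.

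Between KCNJ2, a potassium channel gene, and SOX9, the regulator of cartilage formation whose distant enhancers are known to lie on this side, there were 37 Saos-2 and 30 U2OS hotspots (chr17:70380045-71921019). Of these, 21 hotspots of each line overlapped, and the centred ratio was -0.59 (-1.33 to 0.14). The strongest hotspots of the lines lay at different sites. That of Saos-2 stood at 51.9, where U2OS had 25.0, and that of U2OS at 81.9, where Saos-2 had 33.7. The deserts beside KLF4, a pluripotency and epithelial factor (28 Saos-2 and 36 U2OS hotspots), and TBX3, a T-box factor of limb and heart (24 and 31), were also within 2-fold. Their centred ratios were 0.08 (-0.68 to 0.84) and 0.08 (-0.73 to 0.91).

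Other regulators had the opposite picture. Between GATA3, a zinc-finger factor, and CELF2, an RNA-binding protein, U2OS had 27 hotspots and Saos-2 had 1 (chr10:8275199-10262549, ratio 4.47, interval 1.87 to 9.82). That single Saos-2 hotspot had a significance of 5.47 and was overlapped by a U2OS hotspot at 41.8. In and within 10 kb of CELF2 there were 16 U2OS hotspots and 1 of Saos-2, and at GATA3 there were 3 and 1. Between NR2F2, an orphan nuclear receptor, and ARRDC4, U2OS had 16 hotspots and Saos-2 none (chr15:96540264-97760702, lower bound 1.66). Between IRX1, an Iroquois homeobox factor, and ADAMTS16 the counts were 21 in U2OS and 1 in Saos-2, although ADAMTS16 itself had 7 U2OS and 8 Saos-2 hotspots. Between TMEM182 and POU3F3, a neural POU factor, they were 29 and 2. ZFP64 and TSHZ2, a teashirt zinc-finger factor, flanked 13 U2OS hotspots and none of Saos-2, and TSHZ2 itself had 16 U2OS and 2 Saos-2 hotspots.

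The reverse was seen at RUNX1, a factor of blood formation. The desert between RUNX1 and SETD4 (chr21:35249303-35834540) had 29 Saos-2 and 14 U2OS hotspots, a ratio of -1.34 (-2.37 to -0.37), with 10 of each overlapped. At RUNX1 itself the lines were closer, with 18 Saos-2 and 14 U2OS hotspots. Chromosome 21 as a whole also leaned towards Saos-2. Its hotspots outside deserts were 585 in Saos-2 and 501 in U2OS, a centred ratio of -0.51. The lean is therefore not particular to this desert.

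**Figure D3:**
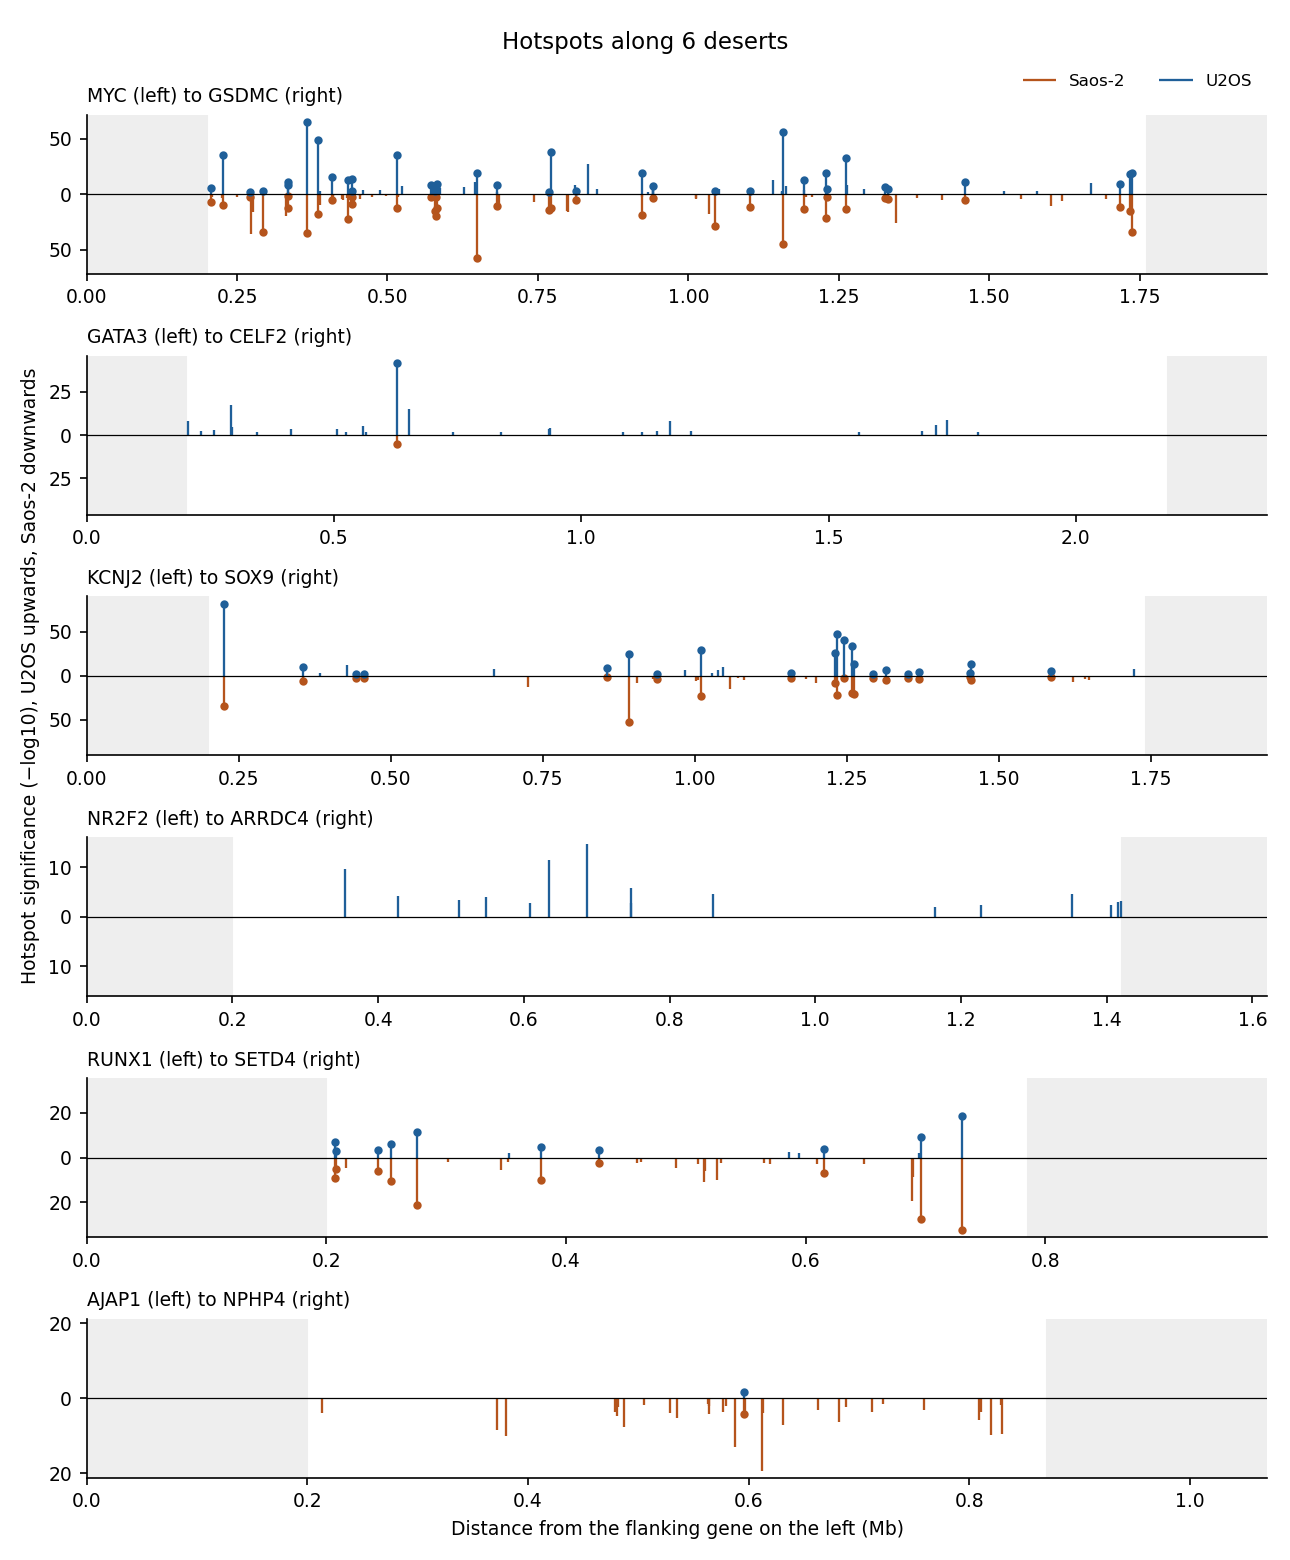
Hotspots along 6 deserts named by their flanking genes: position as distance from the flanking gene on the left (Mb, x axis) and −log10 significance (y axis), U2OS upwards and Saos-2 downwards. Dots mark hotspots overlapped by the other line, and grey bands mark the 200 kb next to each gene, which the rule leaves out. The deserts were picked after values were seen: the MYC and KCNJ2 panels show both lines, the GATA3 and NR2F2 panels almost only U2OS, and the AJAP1 panel almost only Saos-2 (32 hotspots against 1).

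Deserts beside neuronal adhesion and synapse genes were long and thinly filled. Of 65 listed genes, 53 bordered 76 deserts with a median length of 1.34 Mb, and these held 4.51 Saos-2 and 8.20 U2OS hotspots per Mb. Of the 43 with at least 10 hotspots, 17 were at least 2-fold towards U2OS and 2 towards Saos-2, with a median ratio of 0.41. Over all 353 deserts with at least 10 hotspots the numbers were 101 (28.6%) and 37 (10.5%). The shares overlapped were 46.2% in Saos-2 and 25.3% in U2OS, against 48.1% and 32.4% over all deserts. Outside gene-free deserts they were 49.9% and 32.0%. Between IFTAP and LRRC4C, a synaptic netrin-G ligand, there were 37 U2OS and 5 Saos-2 hotspots (ratio 2.60, 1.25 to 4.30). Between MAT2B and TENM2, a teneurin, there were 38 and 15, while TENM2 itself had 37 U2OS and 39 Saos-2 hotspots. LRRC4C had 21 and 18. The deserts between PCDH7, a protocadherin, and ARAP2 (44 U2OS, 35 Saos-2) and between SLITRK5 and GPC5 (26 and 30) were within 2-fold, with centred ratios of 0.04 and -0.49. Between TENM4, another teneurin, and FAM181B the counts were 31 U2OS and 14 Saos-2 hotspots. The desert between CDH9 and LOC124901178, in which PURPL lies, had 28 U2OS and 27 Saos-2 hotspots (-0.23, -1.05 to 0.58), with 15 and 16 of them overlapped. PCDH7 to ARAP2 was also the longest desert outside the gene-free class, at 4.46 Mb. In its middle, 2289 kb from ARAP2, both lines had overlapping hotspots at 8.86 in Saos-2 and 8.58 in U2OS.

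Deserts beside bone and mesenchyme genes were few and, of the 3 lists, had the highest shares overlapped. Only 14 of 50 listed genes bordered a desert, at 18 deserts with 178 Saos-2 and 207 U2OS hotspots, or 15.8 and 18.3 per Mb. There, 57.9% of Saos-2 and 49.3% of U2OS hotspots were overlapped, against 48.1% and 32.4% over all deserts. None of these deserts is gene-free, and outside gene-free deserts the shares were 49.9% and 32.0%. These deserts were also short, with a median length of 0.32 Mb against 0.38 Mb over all deserts. Since overlap was higher nearer genes, length may enter these shares, which was not tested. The median ratio of the 15 with at least 10 hotspots was 0.20, with 2 at least 2-fold each way. Between NSG2 and MSX2, a homeobox factor of skull bone, all 9 Saos-2 hotspots were overlapped and 9 of the 15 of U2OS. Between DDHD1 and BMP4, a bone morphogenetic protein, 13 of 17 Saos-2 and 13 of 19 U2OS hotspots were overlapped. The strongest hotspot of each line, not matched by site, stood at 32.5 (Saos-2) and 98.8 (U2OS). Between CDH11, the osteoblast cadherin, and CDH5 there were 16 and 24 hotspots, 9 of each overlapped. The short desert on the other side of SOX9, up to SLC39A11, held 12 hotspots of each line in 0.12 Mb, with 8 of each overlapped. TGFB2, a transforming growth factor, and LYPLAL1 flanked 16 Saos-2 and 9 U2OS hotspots, past 2-fold towards Saos-2, but the counting interval covers 0 (-1.12, -2.48 to 0.15). Some genes stand in more than 1 list (SOX9, BMP4), and the 3 lists are of unequal size.

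The largest one-sided desert towards U2OS lay between TDRD15 and KLHL29 (chr2:21347326-23185178), with 28 U2OS hotspots and none of Saos-2 over 1.84 Mb. The lower bound of its centred ratio was 2.54. KLHL29 itself was open in both lines, with 14 U2OS and 11 Saos-2 hotspots. NETO1, an auxiliary subunit of kainate receptors, and FBXO15 on chromosome 18 flanked 14 U2OS hotspots and none of Saos-2. On chromosome 8, BPNT2 and FAM110B flanked 17 against 0, and COL22A1, a collagen gene, and KCNK9 flanked 12 against 0. COL22A1 itself had 15 U2OS hotspots and 1 of Saos-2. Among deserts with hotspots of both lines, the largest ratios were 32 U2OS against 1 Saos-2 hotspot between IGFBP7 and LOC124900173 on chromosome 4 and 27 against 1 at GATA3. Next came 21 against 1 at IRX1 and 19 against 1 between DPP10 and DDX18 on chromosome 2.

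Strong single hotspots were part of this. The 5 most significant U2OS members with no Saos-2 overlap were all on chromosome 8, and 3 of them lay between DUSP4, a phosphatase of MAP kinases, and SARAF. The highest, at 100, which is the cap of the scale, stood at chr8:29804013-29804703, 258 kb from SARAF and 80.8 kb from the nearest Saos-2 hotspot. Another at 56.3 lay inside the lncRNA gene LINC02099. That desert held 32 U2OS and 3 Saos-2 hotspots, 102 and 9.61 per Mb. Chromosome 8 had 10 of 26 deserts at least 2-fold towards U2OS and none towards Saos-2, against 91 and 37 of 327 on the other autosomes.

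Of the 5 most significant Saos-2 members with no U2OS overlap, 4 lay in gene-free deserts. Outside gene-free deserts the top Saos-2 member was at 63.7 between LOC102724652 and LOC102723553 (chr21:7258656-7258925). This position is still on the short arm of chromosome 21, an acrocentric chromosome. Then came 47.7 inside LINC02374 between FAT1, an atypical cadherin, and ZFP42 (chr4:187209816-187210620) and 47.2 between FANCL and LOC124906010 (chr2:59764900-59765230). Next were 2 hotspots on either side of TRPS1, a zinc-finger repressor known for its part in the skeleton. The one between TRPS1 and EIF3H, at 40.2, lay inside LINC00536 (chr8:116155423-116155949), 11.2 kb from a U2OS hotspot. The one between CSMD3 and TRPS1, at 36.4, was 114 kb from any U2OS hotspot.

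The most one-sided desert towards Saos-2 lay between AJAP1, an adherens junction protein, and NPHP4, a protein of the cilium (chr1:4992535-5662810). It had 32 Saos-2 hotspots and 1 of U2OS, a ratio of -5.29 (-10.6 to -2.71). The 1 U2OS hotspot had a significance of 1.64 and overlapped a Saos-2 hotspot. The next 4 deserts by ratio were gene-free: 22 Saos-2 against 2 U2OS hotspots between PRIM2 and KHDRBS2, 25 against 3 between ZNF716 and LOC124901649, 13 against 3 between OR4C12 and OR4C46, and 48 against 17 between ZNF37A and ZNF33B. LOC101927293, printed above, carried the only overlapping pair of the PRIM2 desert. Outside the gene-free class the ratios after AJAP1 were smaller. Between TCF4 and TXNL1, CCSER2 and GRID1, and BCKDHB and TENT5A there were 13 Saos-2 against 5 U2OS hotspots each (-1.67, -3.51 to -0.09). MAP2K6 and KCNJ16 on chromosome 17 flanked 8 against 3, with an interval that covers 0 (-4.25 to 0.36).

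The borders of a desert, the 200 kb on each side that the rule leaves out, leaned the same way as the desert in many cases. Over 229 deserts with at least 10 hotspots both inside and in the borders, the log2 ratio inside and in the borders had a Spearman rho of 0.44 and a Pearson r of 0.52. These points share the same 2 libraries, and neighbouring deserts can share a border gene, so this is a description. With each chromosome centred on its own mean, rho was 0.42. Of 50 such deserts at least 2-fold towards U2OS, 36 had borders on the same side of 0, and 23 had borders past 2-fold, with a median border ratio of 0.80. Of 26 towards Saos-2, 22 had borders on the same side but only 2 past 2-fold, with a median of -0.43. Equal counts of the lines give a centred value of -0.29. Some of these 22 lay between that value and 0, so their borders did not hold more Saos-2 than U2OS hotspots. The AJAP1 borders had 15 Saos-2 and 3 U2OS hotspots. Those of RUNX1 to SETD4 had 19 Saos-2 and 18 U2OS hotspots. Deserts within 2-fold had a median border ratio of 0.02.

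**Figure D4:**
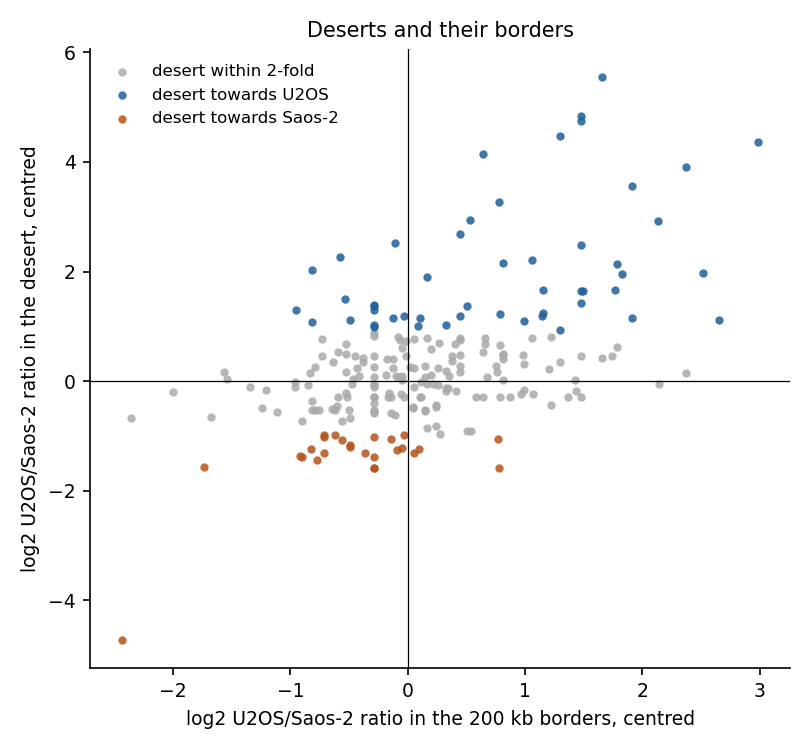
Centred log2 ratio of U2OS to Saos-2 hotspots in the 200 kb borders (x axis) and inside the desert (y axis) for 229 deserts, 1 point each, with 0.5 added to each count. Blue and orange points are deserts at least 2-fold towards U2OS and Saos-2. Blue points spread to the right (median border ratio 0.80), and orange points lie mostly nearer 0 (median -0.43), with 2 of them past 2-fold in the borders. AJAP1 to NPHP4 is the point at the lower left.

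By chromosome, the desert ratio was above the ratio of the other hotspots on 19 of 22 autosomes, and on 8 of them the interval lay wholly above it. Chromosome 2 stood highest, with 343 Saos-2 and 768 U2OS desert hotspots, a ratio of 0.88 (0.69 to 1.06), while its other hotspots were at 0.06. On it 15 of 36 deserts were at least 2-fold towards U2OS. Chromosome 8 followed at 0.58 (0.37 to 0.80), but its other hotspots were also high, at 0.40. Chromosome 17 stood lowest, with 123 Saos-2 and 91 U2OS desert hotspots, at -0.72 (-1.13 to -0.32), while its other hotspots were at -0.07. It has only 13 deserts, among them the desert between KCNJ2 and SOX9. On chromosome 6 deserts and the rest were alike in value, at -0.33 and -0.33.

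**Figure D5:**
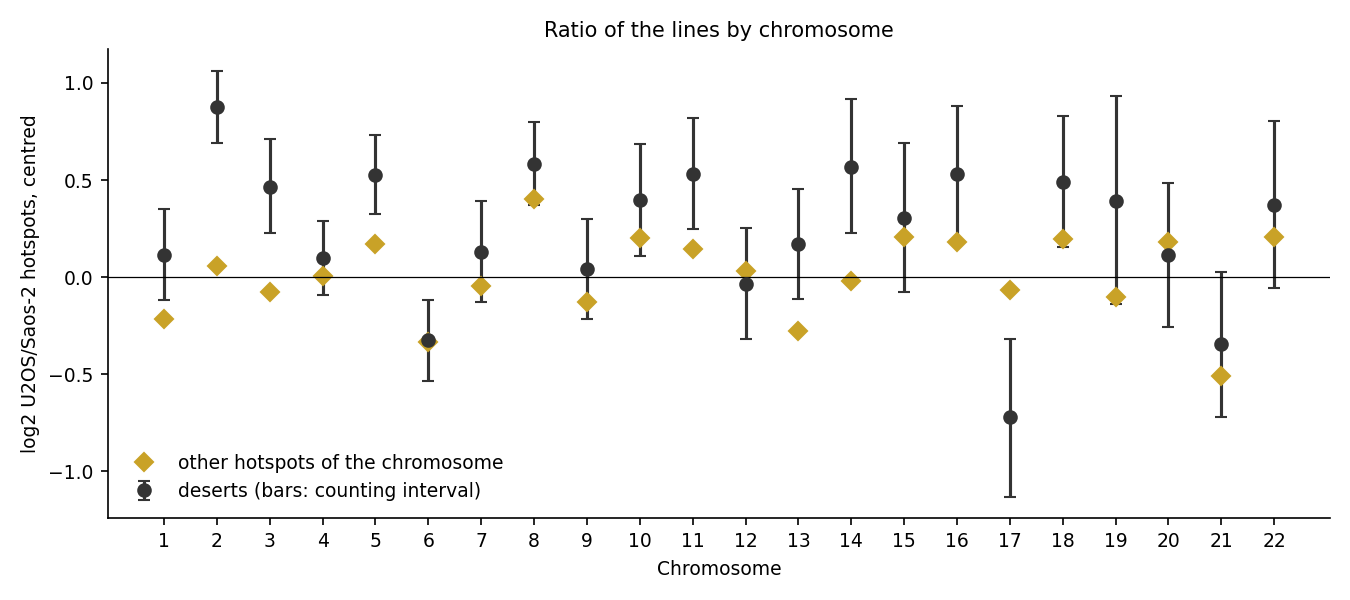
Centred log2 ratio of U2OS to Saos-2 hotspots by chromosome, for desert hotspots (circles with 95% counting intervals) and for the other hotspots of the same chromosome (diamonds). Chromosome 2 deserts are at 0.88 against 0.06 for its other hotspots, and chromosome 17 deserts at -0.72 against -0.07.

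Non-coding genes covered part of the deserts. The lncRNA genes took up 19.4% of desert length and held or touched 32.3% of Saos-2 and 31.6% of U2OS members. That length includes gene-free deserts, 189.6 of 684.8 Mb with 310 Saos-2 and 226 U2OS members, whose gene-free stretches lower the share of length. Within 1 kb of an end of a lncRNA gene stood 183 Saos-2 (4.28%) and 327 U2OS members (5.14%). The share of other hotspots or of desert length near such ends is not given here, so these 2 shares have no background. At these ends 61.2% of the Saos-2 members were overlapped (54.0 to 68.0), against 47.5% of the other members. In U2OS the shares were 34.3% (29.3 to 39.6) and 32.3%, so the interval covers the value away from ends. Pseudogenes held or touched 1.5% and 1.31% of members on 1.04% of the same length. Overlapped members were also wider and more significant than the rest, with medians of 271 against 200 bp and 5.22 against 3.07 in Saos-2, and 311 against 209 bp and 7.40 against 3.73 in U2OS. Across 2056 overlapped Saos-2 members and their best U2OS partners, significance had a Spearman rho of 0.33, and across 27153 such pairs elsewhere it was 0.44.

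The members farthest from genes were on chromosome 22, in a gene-free desert below OR11H1, an olfactory receptor. The farthest U2OS hotspot lay 4841 kb from that gene at a significance of 1.40, and the farthest Saos-2 hotspot at 4507 kb and 2.65, with a U2OS hotspot at 3.17 over it. The longest desert, 22 Mb between LINC02798 and H3-7 on chromosome 1, had only 6 Saos-2 and 5 U2OS hotspots, beside 141 Saos-2 hotspots in chains. The next 4, on chromosomes 15, 13, 14 and 9, were gene-free as well and held 3, 9, 4 and 6 hotspots of both lines together. The shared pair of the highest significance, at the cap of 100 in both lines, lay in the gene-free desert between EPHA3 and PROS1 (chr3:93470262-93470901). Mappability was not corrected here. The best pair outside the gene-free class was between ZNF326 and BARHL2, a homeobox factor, at 59.0 in Saos-2 and 49.97 in U2OS (chr1:90403044-90403712). Another of the 5 best pairs lay between TRIML1 and FRG1 on chromosome 4, at 35.6 and 41.2 (Saos-2 hotspot chr4:188941703-188942182). The longest deserts with no hotspot of either line outside the gene-free class were 0.681 Mb on chromosome 2, 0.466 Mb on chromosome 9 and 0.407 Mb on chromosome 21.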

How the data were processed

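Open chromatin was measured by DNase-seq in Saos-2 and U2OS, 1 library each, and the authors deposited 1 list of hotspots per library. The submitters' processing notes name Trimmomatic 0.38, BWA 0.7.15 and hg38. The hotspot caller, duplicate handling and blacklist are not given in the sources used here. Each deposited hotspot has a −log10 value, taken as its significance, which is capped at 100 and used only to rank hotspots. The deposited score column repeats it and was not used. A deeper library yields more hotspots, so ratios were centred on the other autosomal hotspots.

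Deserts were built from RefSeq gene spans (GRCh38.p14, whose primary chromosomes are those of hg38): 18969 protein-coding genes on chromosomes 1 to 22 were used. A further 153 were left out because their coordinates in the gene table are those of scaffolds. Overlap meant at least 1 bp. Shares have Wilson intervals, differences of shares Newcombe intervals, and ratios exact binomial bounds. There were no replicates, so no test was run. Scripts used Python 3.11.15, numpy 2.4.6, pandas 2.3.3, scipy 1.17.1 and matplotlib 3.10.9, and were tested on simulated regions.

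The members and gene lists were chosen with earlier results of these data known. Deserts were named by hotspot number, ratio, length or flanking gene list, and hotspots by significance or distance. The gene-free class, the 10 to 40 hotspot range, the largest ratios with both lines, the named items outside the gene-free class, the DUSP4 desert, the p53 search and the mapped deserts were chosen after values were seen. Some named items are not reported here.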

Additional observations from a re-analysis of the deposited data

How the results depend on the processing

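With 1 library per line, the intervals cover counting error and not biological spread, and neighbouring hotspots are not independent. No paired analysis was possible because each line has 1 library. Of 96 values recomputed under other settings, 52 stayed within their counting interval or within 1.5 times the count, 43 moved and 1 reversed. The list below gives Saos-2 before U2OS. The setting that reversed was the distance of more than 200 kb from every annotated gene of any type: it left 210 and 204 hotspots, 20% and 23.04% overlapped, a centred log2 ratio of -0.36, and 7 and 1 deserts at least 2-fold towards each line; the cause was not tested.

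With more than 100 kb from protein-coding genes there were 7122 and 10301 hotspots, 49.7% and 34.6% overlapped, and 60 and 154 such deserts. With more than 500 kb there were 1465 and 2237 hotspots, 43.7% and 29.1% overlapped, 20 and 52 such deserts, and a density 5.21-fold and 4.21-fold lower than elsewhere. With the most significant 50% of each list there were 2029 and 3072 hotspots, the U2OS share overlapped was 31.0%, and 49 deserts were towards U2OS. With lists of equal length the shares overlapped were 43.4% and 36.0%. With at least 50% of both hotspots overlapping they were 34.2% and 23.03%. With chains kept, the Saos-2 share was 45.8%, the centred log2 ratio 0.21 and the Saos-2 density 3.16-fold lower. By covered bases the density was 3.49-fold and 2.91-fold lower. With at least 20 hotspots per desert 21 and 44 deserts were past 2-fold, and at least 4-fold held for 4 and 43.

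Added after the data were seen: without gene-free deserts the Saos-2 share was 49.9%, the ratio 0.34, and the density 2.60-fold and 2.05-fold lower. Without chromosome 8 the density was 3.45-fold and 2.83-fold lower. Centring each desert on its chromosome, and keeping the genes with scaffold coordinates, moved no value past these limits.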
